A study of Homo sapiens with 6 samples.

Results

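Interferon-stimulated genes are the genes that cells switch on when interferon reaches them, and 34 of them were followed here out of 36415 genes summed from the transcript tables. The 34 were given as a named list whose rule used no measured value, although the list was proposed with earlier results of these data known. All 34 were annotated, 31 of the 15765 genes that passed the low-count filter were members, and SAMD9L, RSAD2 and IFI44L fell under it. RNA was sequenced from HCT116 cells (a human colorectal carcinoma line), from a single clone in which both MCM2 alleles carry a mini auxin-inducible degron (mAID) and in which the plant F-box protein AtAFB2 is driven by a CMV promoter. MCM2 is a subunit of the replicative helicase. There were 3 libraries from cells given auxin, which was 3-indoleacetic acid at 500 µM given for 6 h in the study's methods and triggers destruction of the tagged protein, and 3 from cells given the solvent DMSO, all from cells synchronized and sorted in G1 phase. The degron and AtAFB2 were present in every library, so the effect of auxin itself and the effect of MCM2 loss cannot be told apart. The study describes the replicates as independent without saying whether they were separate cultures, so p-values here rest on how far these libraries spread.

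Libraries held 52.5 to 68.4 M estimated counts. Levels between groups are in CPM, counts scaled to library size. The 8 epithelial markers summed to 4255 to 4452 CPM in auxin and to 4611 to 5096 CPM in DMSO, with EPCAM, CDH1, CDX2 and the keratins KRT8, KRT18 and KRT19 expressed, VIL1 at means of 0.687 and 1.10 CPM and LGALS4 under the low-count filter. The 12 leukocyte markers summed to 2.59 to 2.98 CPM per library, and of 8 fibroblast markers only COL1A1 stood out, with means of 35.6 CPM in auxin and 31.3 CPM in DMSO. KRT18 fell as the 1 called marker of 7 epithelial markers tested, with a log2 fold change of -0.17 and an adjusted p of 0.0937, and the part of these markers in the results below was not tested. The degron acts on the protein, so MCM2 mRNA does not check the labels. In bulk RNA, fewer cells expressing a gene and less of its RNA per cell cannot be told apart.

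Interferons are secreted proteins that signal through paired receptors and the JAK kinases. Type I and type III interferons activate a complex holding STAT2 and IRF9 that binds a DNA element called the interferon-stimulated response element (ISRE), and type II interferon acts through the gamma-activated site (GAS). The induced proteins bind or cut viral RNA, trap virions, tag proteins with the ubiquitin-like modifier ISG15, and adjust the pathway itself. Epithelial cells keep many of these genes at a low basal level without infection. No interferon-treated sample was part of this comparison, so the list could not be checked by its induction.

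The start regions of these genes were read from RefSeq (GRCh38.p14, from 250 bases before to 50 bases after each start), which matched 28 of the 34 genes. IFIT2, OAS2, OASL, MX2, IRF7 and USP18 had no entry. An ISRE core, searched on both strands as GAAA, then 2 bases of any kind, then GAAA, was found for 19 of the 28 genes (67.9%), against 4.38% of all 27305 genes in that table and 3.57% of its 35116 start regions. The GAS form TTCNNNGAA, which reads the same on both strands, was found for 9 of the 28 (32.1%), against 9.38% of all genes and 7.66% of start regions. Within the list there were 41 ISRE core matches and 11 GAS matches, 4 of the GAS matches overlapped an ISRE core (in BST2, IFI27 and MX1), and 4 neighbouring ISRE cores overlapped each other (in BST2, HERC5, IFIH1 and ISG15). OAS1, RIGI, STAT2, IRF1, IRF9, HERC6, SAMD9L, XAF1 and IFI35 held no ISRE core in this window.

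The sequences below are the start regions of the 3 members that were called changed (PARP14, PARP9 and IFIT5), of the most abundant member (ISG15), and of IFIT1 as a low-level relative of IFIT5. They are printed in the direction of transcription, and capitals mark ISRE core matches on either strand.
PARP14 (chr3:122680589-122680888, plus strand): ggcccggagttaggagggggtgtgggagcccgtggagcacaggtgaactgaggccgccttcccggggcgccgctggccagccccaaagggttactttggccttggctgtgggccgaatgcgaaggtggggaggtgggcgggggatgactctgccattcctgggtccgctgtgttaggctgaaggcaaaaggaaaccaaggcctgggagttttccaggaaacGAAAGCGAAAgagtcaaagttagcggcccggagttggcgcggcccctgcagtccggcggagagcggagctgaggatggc
PARP9, second listed start (chr3:122564251-122564550, minus strand): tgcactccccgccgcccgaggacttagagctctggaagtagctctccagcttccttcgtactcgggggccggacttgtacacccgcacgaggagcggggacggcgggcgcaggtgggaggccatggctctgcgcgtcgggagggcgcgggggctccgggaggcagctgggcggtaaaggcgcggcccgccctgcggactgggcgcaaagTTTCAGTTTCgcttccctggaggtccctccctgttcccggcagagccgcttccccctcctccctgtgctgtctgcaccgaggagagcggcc
IFIT5 (chr10:89414318-89414617, plus strand): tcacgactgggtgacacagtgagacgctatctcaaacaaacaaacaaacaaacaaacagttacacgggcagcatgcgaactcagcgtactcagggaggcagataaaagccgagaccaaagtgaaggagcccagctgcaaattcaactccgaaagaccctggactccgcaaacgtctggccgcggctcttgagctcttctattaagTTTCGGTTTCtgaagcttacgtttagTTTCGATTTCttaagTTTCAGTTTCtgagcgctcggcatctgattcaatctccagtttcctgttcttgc
ISG15 (chr1:1013247-1013546, plus strand): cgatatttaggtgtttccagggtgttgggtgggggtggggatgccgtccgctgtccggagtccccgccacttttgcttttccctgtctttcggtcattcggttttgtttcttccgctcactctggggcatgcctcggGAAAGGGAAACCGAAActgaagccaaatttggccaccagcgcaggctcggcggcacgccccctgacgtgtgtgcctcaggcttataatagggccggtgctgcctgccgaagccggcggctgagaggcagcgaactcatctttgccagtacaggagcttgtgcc
IFIT1 (chr10:89392373-89392672, plus strand): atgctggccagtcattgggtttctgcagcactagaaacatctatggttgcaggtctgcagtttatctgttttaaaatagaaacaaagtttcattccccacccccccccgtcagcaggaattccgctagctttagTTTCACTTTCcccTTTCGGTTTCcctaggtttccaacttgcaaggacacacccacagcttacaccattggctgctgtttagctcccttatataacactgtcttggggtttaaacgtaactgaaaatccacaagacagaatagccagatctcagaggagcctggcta
PARP14 and this PARP9 start each held 1 core, beginning 29 and 41 bases before the start. IFIT5 held 3, beginning 45, 19 and 4 bases before it. ISG15 and IFIT1 each held 2, farther out, at 113 and 107 bases for ISG15 and at 116 and 103 bases for IFIT1. The first listed PARP9 start held none. DTX3L, the partner gene of PARP9, starts 38 bases from the second PARP9 start on the opposite strand, and the core printed for PARP9 (chr3:122564332-122564341) is the same 10 bases that span the DTX3L start, beginning 6 bases before it. A match of letters is a description of these windows and not evidence that a factor binds there.

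**Figure D1:**
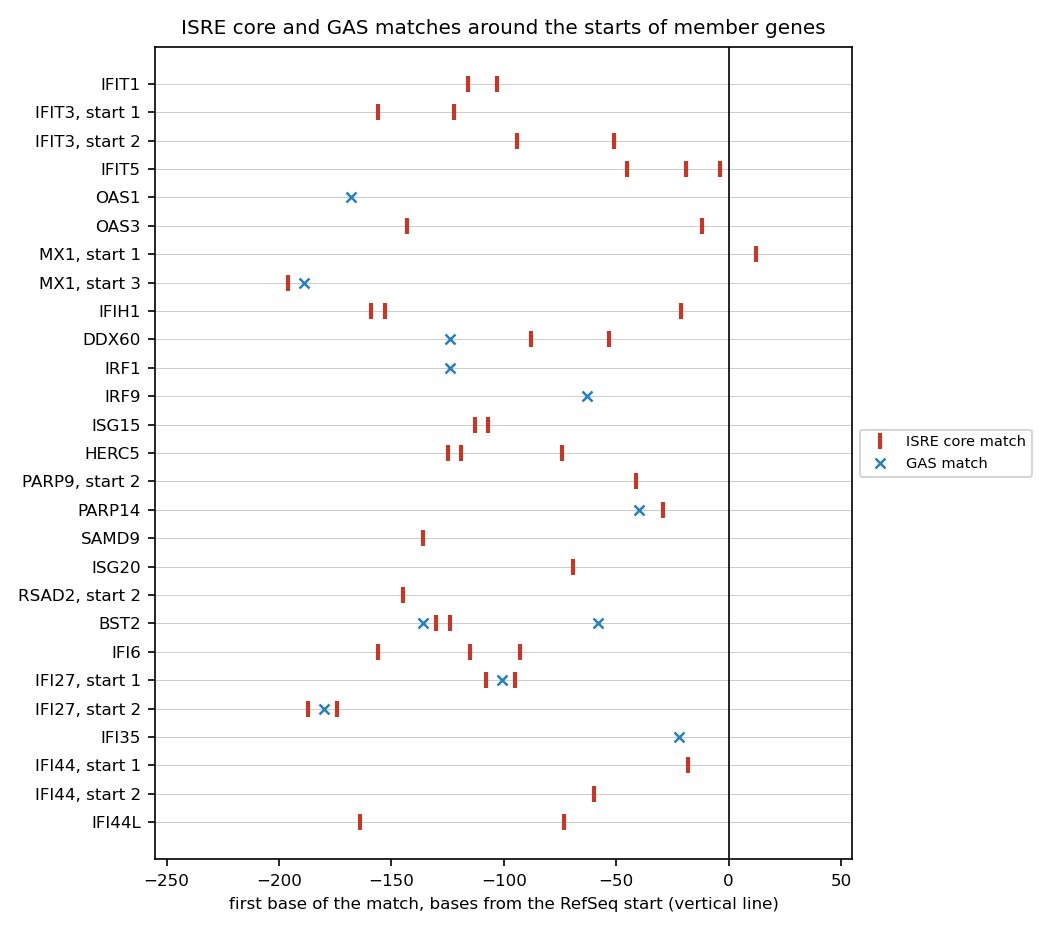
Position of ISRE core matches (red bars) and GAS matches (blue crosses) in bases from the RefSeq start (vertical line), one row for each listed start of a member that holds a match. The matches of IFIT5 lie within 45 bases of its start, and those of IFIT1 lie 103 and 116 bases before it.

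Over the 6 libraries these genes spanned a wide range of levels, most of them low. Levels between genes were compared in TPM, which correct for transcript length and sum to the same total in every library. Of the 34 members, 6 had a mean of at least 10 TPM, 15 lay between 1 and 10, 10 lay between 0.1 and 1, and 3 were under 0.1. The median of the tested members was 2.80 TPM against 9.46 TPM for all tested genes, and 6 members lay above that median. ISG15, the ubiquitin-like modifier, stood far above the rest at 185 TPM and made up 53.8% of the summed TPM of the list. Its libraries ranged from 171 to 201 TPM, which placed it at the 95.4th percentile of tested genes. IFI6, a small membrane protein that restrains cell death, followed at 26.9 TPM (25.6 to 28.5 over the 6 libraries). OAS3, which makes oligoadenylates on binding double-stranded RNA, came next at 22.0 TPM (19.3 to 24.7), and its range did not meet that of IFI6. IRF1 at 14.8 TPM (12.3 to 17.2), STAT2 at 14.2 TPM (12.0 to 17.2) and IFIT5 at 13.4 TPM (11.7 to 16.0) overlapped one another and cannot be ordered.

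At the other end stood genes that rise strongly in interferon-treated cells. IFIT1, IFIT2 and IFIT3 lay at 0.845, 0.256 and 0.812 TPM, against 13.4 TPM for IFIT5 of the same family and chromosome 10 cluster. RSAD2, the antiviral radical enzyme viperin, held 1.1 to 7.13 estimated counts per library, IFI44L 3 to 16 and SAMD9L 0 to 2, where 3 counts was taken as the floor of detection. IFIT2 and IFIT3 share exon sequence with LIPA on the opposite strand. Because the strand setting of the read assignment is not given in the sources used here, reads of such neighbours cannot be told apart.

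**Figure D2:**
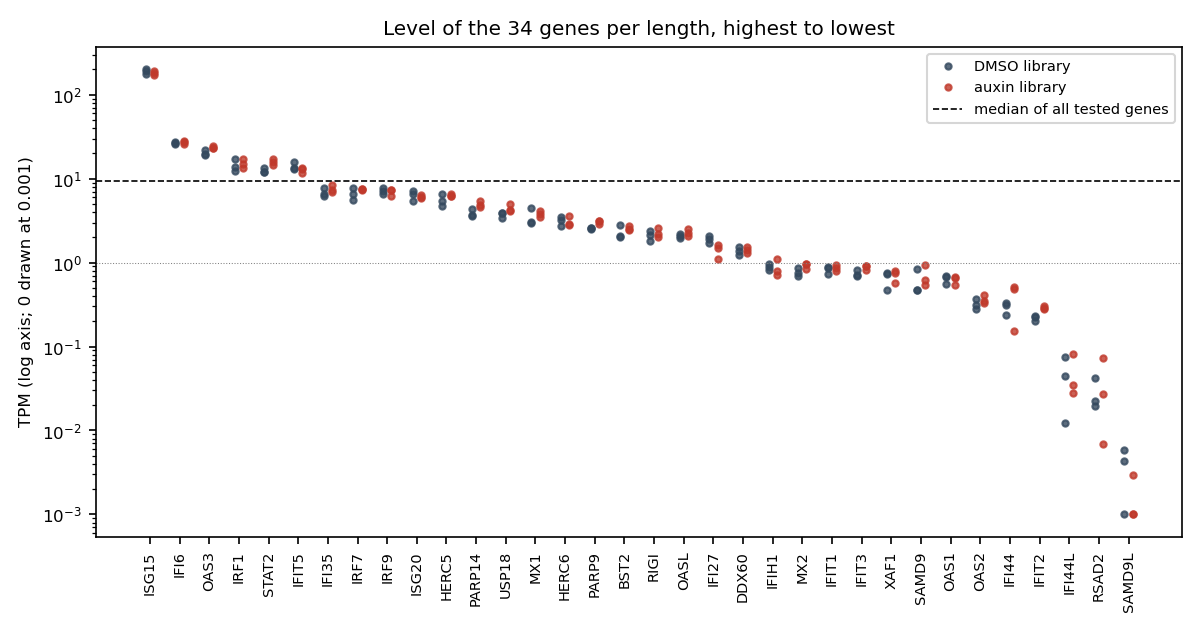
Level of each of the 34 genes in TPM on a log axis, DMSO libraries in dark blue and auxin libraries in red, with the median of all tested genes as a dashed line at 9.46 TPM. ISG15 lies above 100 TPM in all 6 libraries, 6 genes lie above the dashed line on average, and SAMD9L, RSAD2 and IFI44L lie below 0.1 TPM.

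The comparison of auxin with DMSO asks whether these mRNAs differ after auxin treatment, be it through auxin itself or through MCM2 loss. With the libraries taken as unpaired, few did, and by small amounts. PARP14 and PARP9, both ADP-ribosyltransferase family members, rose 1.22-fold, and IFIT5 fell to 0.883-fold. The other 28 tested members had adjusted p of 0.11 or more. The calls (adjusted p under 0.1 by the edgeR quasi-likelihood test over all genes) took in 2 members in the upward direction, where 4.32% of all 15765 tested genes were called, and 1 in the downward direction, where 2.46% were. Together 3 of 31 (9.68%) stood against 6.78% of all genes (1069), a share close enough to that background that nothing is read from it. Of all called genes 63.7% were higher in auxin, a split that moved to 46.4% with DESeq2, 49.7% with a length trend removed, 76.6% with effective length offsets and 90.2% on a log2(TPM + 1) scale. The log2 fold changes of the members ran from -0.26 (IFI27) to 0.34 (STAT2), 21 above 0 and 10 below, with a median of 0.07 against 0.01 for all tested genes. The median SE of a member was 0.11. For 26 of the 31 the 95% interval lay within 1.5-fold in either direction, and the exceptions were IFIT2, OAS2, SAMD9, IFI27 and IFI44, each with under 5 CPM. The widest upper bound was 1.76-fold, for SAMD9. The groups did not overlap in CPM for 7 members, IFIT2, OAS3, IRF1, IRF7, PARP9 and PARP14 on the high side and IFIT5 on the low side, against 26.7% of all tested genes.

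**Figure D3:**
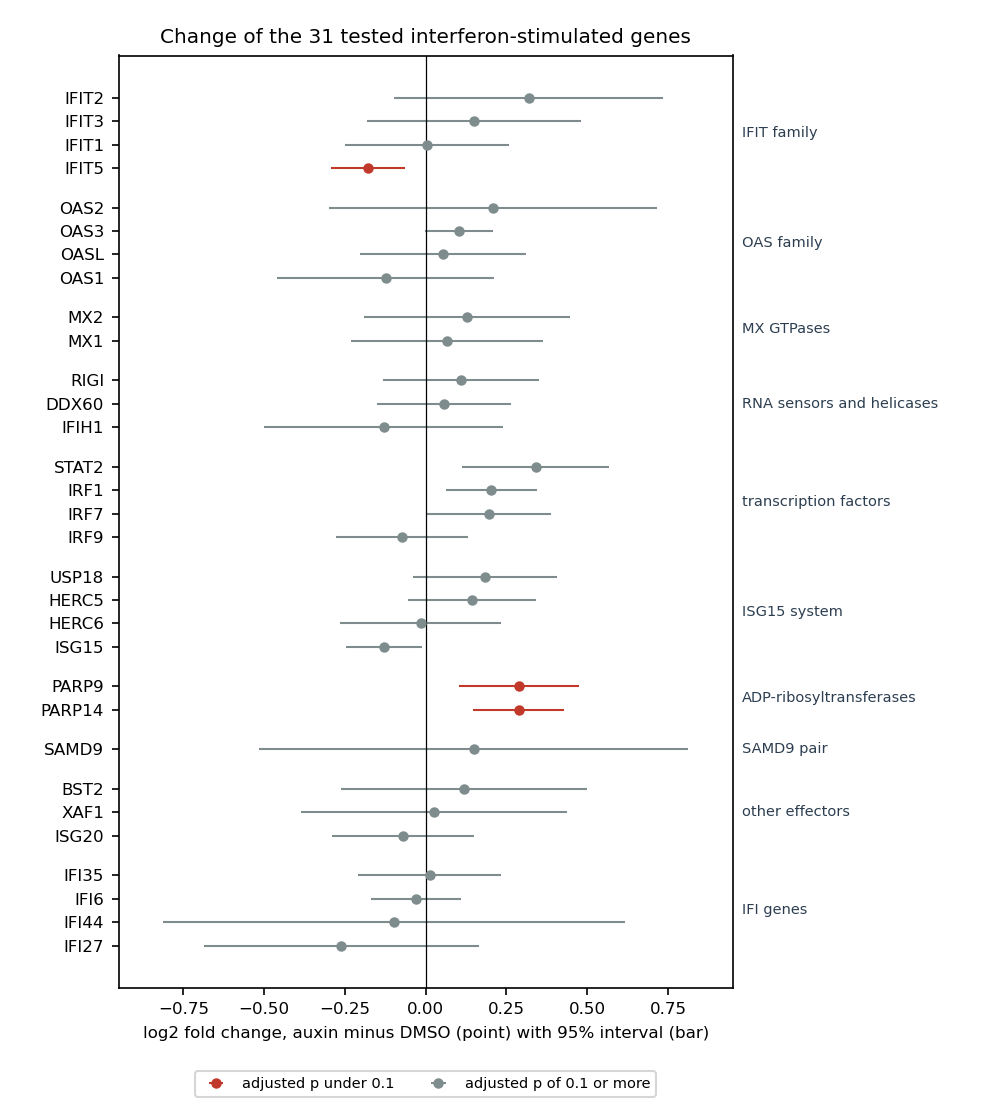
Log2 fold change of auxin against DMSO for the 31 tested members, ordered by role, with 95% intervals from 3 libraries per group; red marks adjusted p under 0.1. PARP9 and PARP14 lie at 0.29 and IFIT5 at -0.18, and the other 28 are grey.

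The members called higher were the ADP-ribosyltransferase pair on chromosome 3. PARP14 (ENSG00000173193, hg38 chromosome 3, 122680839 to 122730840, plus strand) encodes a macrodomain protein that attaches single ADP-ribose units to targets. It stood at 26.2, 26.2 and 25.2 CPM in auxin and at 23.1, 20.4 and 20.1 CPM in DMSO. All auxin libraries lay above all DMSO libraries, and DMSO replicate 1 was the nearest to them. The means were 25.9 ± 0.55 and 21.2 ± 1.63 CPM (SD, n = 3 each), which gave 0.29 on the log2 scale (SE 0.06, adjusted p = 0.0459). PARP9 (ENSG00000138496, chromosome 3, 122527924 to 122564577, minus strand) encodes a macrodomain protein that works in a heterodimer with the ubiquitin ligase DTX3L. It was measured at 8.42, 7.58 and 8.39 CPM in auxin and at 6.87, 6.94 and 6.17 CPM in DMSO. The groups again did not overlap, and the gap between auxin replicate 2 and DMSO replicate 2 was the narrowest. Its means were 8.13 ± 0.48 and 6.66 ± 0.42 CPM, or 0.29 on the log2 scale (SE 0.08, adjusted p = 0.0927).

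DTX3L (ENSG00000163840, chromosome 3, 122564338 to 122575203, plus strand), a gene of the wider pathway that shares its start region with PARP9, moved the same way. It stood at 13.3, 13.9 and 13.4 CPM in auxin against 11.2, 9.78 and 9.24 CPM in DMSO. On the log2 scale it rose by 0.42 (SE 0.08, adjusted p = 0.0241). Exons of PARP9 and DTX3L overlap on opposite strands, so part of their reads may be shared. Without auxin replicate 2, DMSO replicate 2 or DMSO replicate 3, PARP14 gave log2 fold changes of 0.28, 0.25 and 0.25 with adjusted p of 0.196, 0.134 and 0.16, and DTX3L gave adjusted p of 0.133, 0.106 and 0.106. PARP9 lost its call without any auxin library or without DMSO replicate 2 or 3 (adjusted p 0.143 to 0.255). With the trend of fold change on transcript length removed, PARP14 dropped to 0.16 (adjusted p = 0.151) and PARP9 to 0.24 (adjusted p = 0.151), while DTX3L was still called at 0.32 (adjusted p = 0.0507). Over all alternatives, adjusted p ranged from 0.000541 to 0.214 for PARP14, from 0.0105 to 0.296 for PARP9 and from 0.000317 to 0.133 for DTX3L.

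Among the IFIT genes, IFIT5 moved down. IFIT5 (ENSG00000152778, chromosome 10, 89414568 to 89421605, plus strand) was measured at 23.6, 22.7 and 23.1 CPM in auxin against 26.7, 26.3 and 25.5 CPM in DMSO. The 2 groups were tight and did not overlap. The means were 23.1 ± 0.44 and 26.2 ± 0.60 CPM, or -0.18 on the log2 scale (SE 0.05, adjusted p = 0.0910). Its neighbours in the cluster had log2 fold changes of 0.32 for IFIT2, 0.15 for IFIT3 and 0.00 for IFIT1, with adjusted p of 0.358, 0.612 and 0.988. The IFIT5 call was lost when any single library was left out (log2 fold changes -0.17 to -0.20, adjusted p 0.102 to 0.312), and without a count filter (adjusted p = 0.119), and it held with the length trend removed (adjusted p = 0.0748). Its adjusted p over all alternatives ranged from 0.00738 to 0.459.

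**Figure D4:**
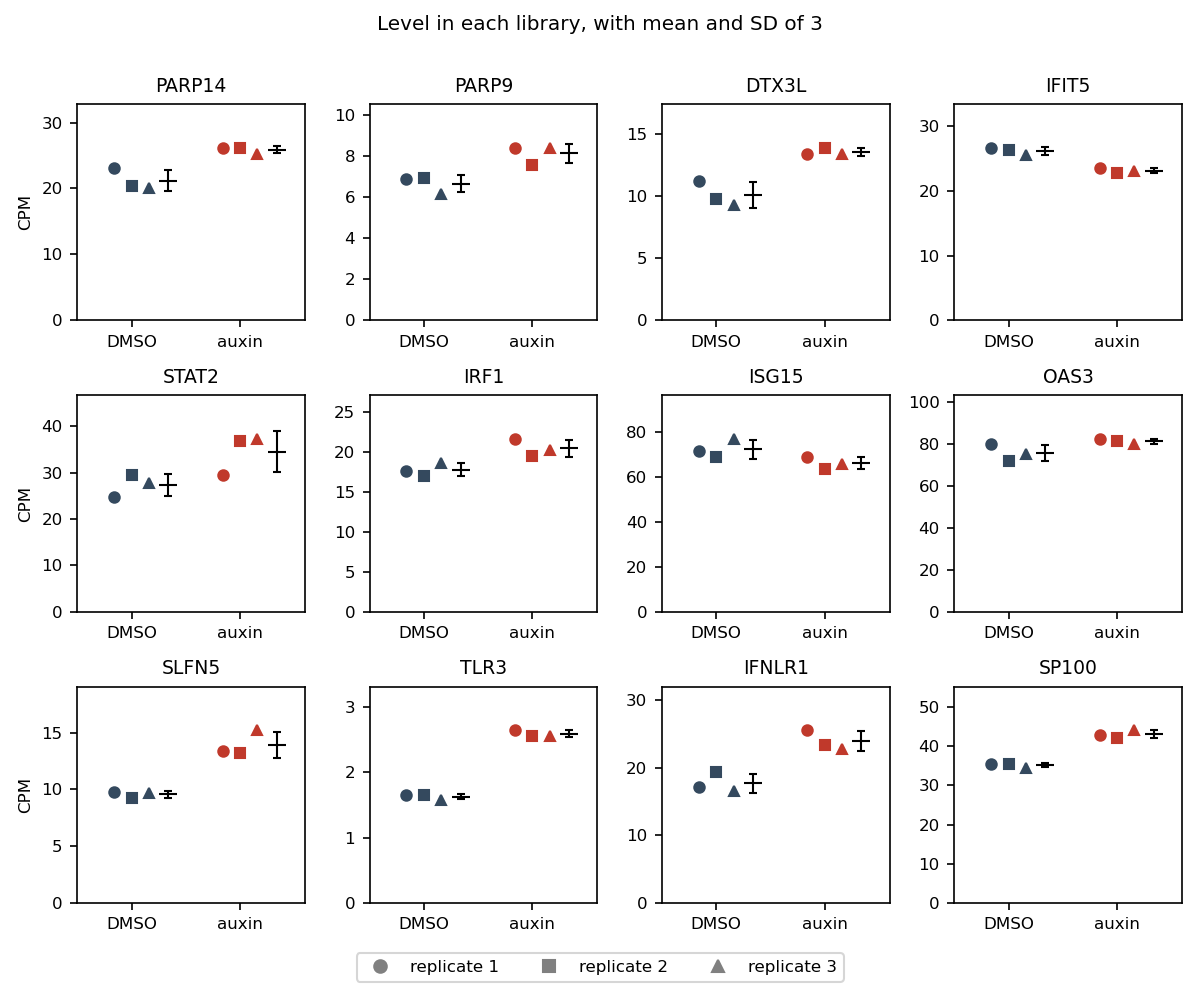
CPM of 12 genes in each library (circle, square and triangle for replicates 1, 2 and 3; dark blue DMSO, red auxin), with the mean and SD of each group in black. PARP14, PARP9, DTX3L, SLFN5, TLR3, IFNLR1 and SP100 have every auxin library above every DMSO library, IFIT5 the reverse, and STAT2 and ISG15 overlap.

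The 4 transcription factors of the list included the 3 uncalled members with an unadjusted p under 0.05 and a positive fold change. STAT2 (chromosome 12, 56341597 to 56360203, minus strand), a subunit of the ISRE-binding complex, had the largest fold change of the list. It stood at 29.4, 36.8 and 37.3 CPM in auxin and at 24.7, 29.5 and 27.7 CPM in DMSO. Replicate 1 was the lowest library of both groups, and auxin replicate 1 lay just below DMSO replicate 2, so the groups overlapped. The log2 fold change was 0.34 (SE 0.10, 95% interval 0.11 to 0.57, adjusted p = 0.11), which misses the threshold. With DESeq2, which called 13.3% of the 12690 genes it gave an adjusted p, STAT2 was called (adjusted p = 0.0181) and brought the members called to 4 of 27. With limma-voom, which called 6.07% of genes, it was not (adjusted p = 0.111), and 2 members were, PARP14 and IFIT5. With replicates 2 and 3 alone, an alternative chosen after seeing the data, it gave 0.37 (adjusted p = 0.000940), and over all alternatives its adjusted p ranged from 7.16e-05 to 0.323.

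IRF1, an inducible activator of the same promoters, was measured at 21.6, 19.5 and 20.2 CPM in auxin and at 17.6, 17.0 and 18.6 CPM in DMSO. The groups did not overlap, and their log2 difference was 0.20 (SE 0.06, adjusted p = 0.112). Under effective length offsets that value was 0.01. IRF7, which drives interferon genes themselves, lay at 6.86, 7.09 and 6.74 CPM against 6.61, 5.68 and 5.72 CPM. All auxin libraries were above the DMSO libraries by a narrow margin, and the log2 difference was 0.20 (SE 0.09, adjusted p = 0.230). IRF9, the DNA-binding subunit of the ISRE complex, gave 4.28, 4.73 and 4.33 CPM against 4.46, 4.596 and 4.97 CPM, and its log2 fold change reached -0.07 (SE 0.09, adjusted p = 0.70), with overlapping groups.

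The ISG15 system tags proteins with ISG15 and removes it. ISG15 itself lay at 69.1, 63.8 and 66.1 CPM in auxin and at 71.6, 68.8 and 77.2 CPM in DMSO. The groups overlapped at auxin replicate 1 and DMSO replicate 2, and the log2 fold change was -0.13 (SE 0.05, 95% interval -0.25 to -0.01, adjusted p = 0.199). HERC5, the ligase that attaches ISG15 in human cells, was measured at 14.2, 14.6 and 16.0 CPM against 12.9, 12.3 and 15.3 CPM, with overlap and a log2 fold change of 0.14 (adjusted p = 0.390). USP18, which removes ISG15 and restrains the type I receptor, and HERC6, the main ISG15 ligase of mice, had log2 fold changes of 0.18 and -0.02, neither called.

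The RNA sensors and helicases gave no call. RIGI, a sensor of short double-stranded RNA and triphosphate ends, stood at 6.58, 5.26 and 5.96 CPM in auxin and at 5.96, 4.91 and 5.60 CPM in DMSO. IFIH1, also named MDA5, a sensor of long double-stranded RNA, gave 2.56, 1.68 and 1.80 CPM against 2.32, 2.25 and 2.03 CPM. DDX60, a helicase linked to RIGI signalling, gave 6.92, 5.70 and 6.17 CPM against 5.82, 6.34 and 5.93 CPM. All 3 overlapped between groups, with log2 fold changes of 0.11, -0.13 and 0.06 and adjusted p of 0.610, 0.705 and 0.783. RIGI and IRF9 each share exon sequence with another annotated gene of the same strand, which can take part of their reads.

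The antiviral enzymes and effectors spread to both sides of 0 without a call. OAS3 lay at 82.6, 81.6 and 80.3 CPM in auxin against 80.1, 72.1 and 75.1 CPM in DMSO, where DMSO replicate 1 came close to the auxin libraries. Its log2 difference was 0.10 (SE 0.05, adjusted p = 0.240), and those of OAS1, OAS2 and OASL were -0.12, 0.21 and 0.05. IFI6 gave 14.2, 13.2 and 13.9 CPM against 13.6, 14.2 and 14.5 CPM, with a log2 fold change of -0.03 (SE 0.06, 95% interval -0.17 to 0.11). The dynamin-like GTPases MX1 and MX2 had log2 fold changes of 0.07 and 0.13, BST2, which tethers virions to the cell surface, 0.12, and the exoribonuclease ISG20 -0.07. IFI27 at -0.26 had the lowest fold change of the list and a mean of under 1 CPM in both groups. The largest SE of the list was 0.32, for IFI44, and SAMD9, a brake on cell growth and virus replication, had an SE of 0.28. It stood at 4.77, 3.08 and 2.82 CPM in auxin and at 4.42, 2.61 and 2.52 CPM in DMSO, so that replicate 1 exceeded the other replicates in both groups.

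The sums of the deposited transcripts hide which isoforms carried each gene. Of 473 listed member transcripts 127 were tested, and none was called, against 0.00256% of all 78049 tested transcripts (2). The study reported transcripts changed in both directions at the same false discovery rate with sleuth, which was not run here. With edgeR, the only tool run on transcripts, 8 of the 127 had p under 0.05 before adjustment. The share of all tested transcripts under that bound was not counted, so nothing is read from this count. The smallest adjusted p was 0.384, for PARP9-201, at 1.85, 2.00 and 2.50 CPM in auxin against 1.05, 0.89 and 0.69 CPM in DMSO (log2 fold change 1.26, SE 0.23). PARP9-208, the most abundant PARP9 transcript by TPM, leaned the other way, at 2.11, 1.45 and 0.49 CPM against 2.39, 3.64 and 2.88 CPM (log2 fold change -1.14, SE 0.51, adjusted p = 0.779). PARP14-202, the main coding form with 69.1% of the TPM of PARP14, gave 20.9, 20.0 and 19.1 CPM against 18.4, 15.1 and 12.8 CPM (log2 fold change 0.37, adjusted p = 0.728). For IFIT5 both main coding transcripts were lower in every auxin library, IFIT5-201 at 15.4, 14.96 and 15.01 CPM against 17.3, 16.9 and 17.3 CPM, and IFIT5-206 at 7.45, 6.76 and 7.004 CPM against 8.13, 7.80 and 7.58 CPM. ISG15-203, with 98.7% of ISG15, had a log2 fold change of -0.12 (adjusted p = 0.837).

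For 9 tested members, under 50% of the TPM was assigned to transcripts annotated as protein coding, while for 12 the share was at least 90%. The coding share was 0% for MX2, 6.34% for MX1, 8.72% for OAS1, 11.7% for STAT2, 13.1% for IRF9, 18.4% for RIGI, 22.8% for OAS2, 32.8% for IRF7 and 36.5% for XAF1. In CPM, retained-intron transcripts held 97.6% of MX2, 94.9% of OAS1 and 72.5% of MX1. Coding transcripts held more of IRF7 and XAF1 in CPM than in TPM, at 50.95% and 57.0%. Retained-intron STAT2 transcripts summed to 12.4, 17.8 and 16.6 CPM in auxin and to 11.5, 14.2 and 12.0 CPM in DMSO. Coding STAT2 transcripts summed to 5.55, 4.10 and 6.99 CPM against 3.86, 3.18 and 6.53 CPM, overlapping between groups. The fold change of STAT2 describes all its transcripts and not its coding mRNA alone.

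The genes around the list were taken as 91 further genes of the interferon pathway, of which 72 were tested. In all 6 rose and 0 fell by edgeR, where 6.78% of all tested genes were called (4.32% higher and 2.46% lower), so that nothing particular to these genes is read from the count. Before adjustment 13 were higher and 3 lower (p under 0.05). The share of all tested genes under that bound was not counted, so nothing is read from these counts either. DESeq2, which called 13.3% of genes (46.4% of them higher), and limma-voom, which called 6.07% (64.1% higher), called 0 falls each. An edgeR fit with a replicate block called 6 falls, where 30.9% of all genes were called (52.6% of them higher). No result about these genes is read from the number of falls. The 12 interferon genes examined, with IFNA1, IFNA2, IFNA5 and IFNA13 as the only alpha genes among them, were at or near the limit of detection. In these libraries 7 of them had no count, IFNE held 5 to 14 counts per library, and the other 4 reached at most 2. Among 10 receptors and kinases, all had log2 fold changes above 0 and 1 was called. That was IFNLR1, the ligand-binding chain of the type III interferon receptor, at 25.6, 23.4 and 22.8 CPM in auxin and 17.2, 19.3 and 16.6 CPM in DMSO (log2 fold change 0.44, SE 0.07, adjusted p = 0.0134). Its partner chain IL10RB stood at 18.8, 18.2 and 20.1 CPM against 17.4, 17.3 and 17.0 CPM (0.14, adjusted p = 0.214).

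Beside 4.32% of all tested genes called higher, 2 of 15 tested sensing and adaptor genes rose, among them TLR3. This gene, the endosomal receptor for double-stranded RNA, had the largest fold change of all genes named here. It stood at 2.65, 2.56 and 2.56 CPM in auxin against 1.65, 1.65 and 1.58 CPM in DMSO, with tight groups far apart (log2 fold change 0.67, SE 0.11, adjusted p = 0.0150). The 8 feedback inhibitors gave no call, and the 2 smallest p were those of TRIM21, at 13.6, 13.3 and 13.5 CPM against 11.5, 11.5 and 12.6 CPM (0.18, adjusted p = 0.149), and SOCS3, at 33.0, 25.9 and 26.4 CPM against 34, 32.01 and 29.6 CPM (-0.17, adjusted p = 0.357).

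Of 39 tested genes among the other interferon-inducible genes 3 rose, DTX3L and the next 2, beside the 4.32% of all tested genes called higher. SLFN5, a nuclear protein of the Schlafen family, gave 13.4, 13.2 and 15.3 CPM in auxin against 9.75, 9.20 and 9.71 CPM in DMSO (log2 fold change 0.54, SE 0.08, adjusted p = 0.00537). SP100, a component of PML nuclear bodies, gave 43.0, 42.2 and 44.2 CPM against 35.5, 35.5 and 34.6 CPM (0.29, SE 0.05, adjusted p = 0.00937). Both groups stood apart for each of these genes. TLR3, SLFN5 and SP100 were called under each of the 18 alternatives, with adjusted p of at most 0.0787, 0.0510 and 0.0539.

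**Figure D5:**
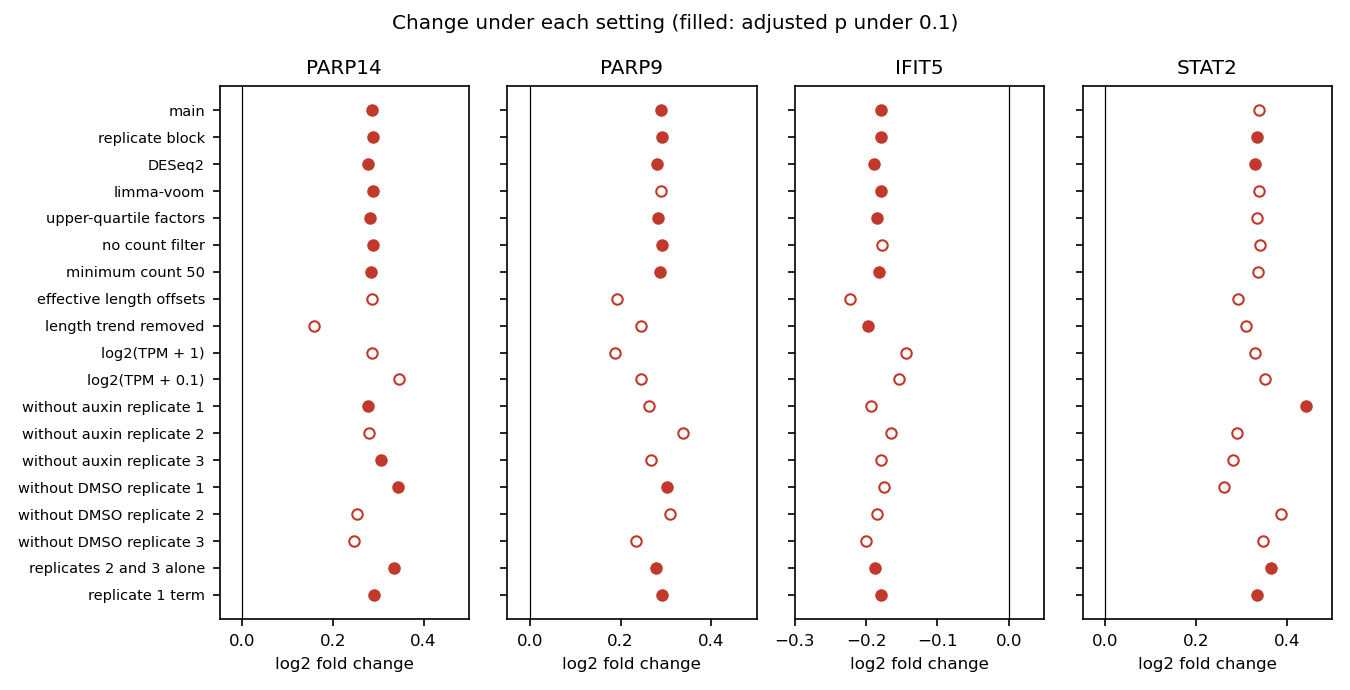
Log2 fold change of PARP14, PARP9, IFIT5 and STAT2 under the reported test (top row) and each of 18 alternatives, filled where the adjusted p was under 0.1. The values of each gene stay on one side of 0 throughout, between 0.16 and 0.35 for PARP14, and the filling changes from row to row.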

How the data were processed

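The libraries were poly(A)-selected, made with a strand-marking kit and sequenced in paired ends. The authors assigned reads to human transcripts (hg38) with kallisto and tested transcripts with sleuth. The transcript release is not given in the sources used here. The deposited tables held estimated counts per transcript, not normalised, and effective lengths. Of 199240 transcripts, 178869 matched GENCODE release 44 and held 96.2% to 96.3% of the counts. They were added up per gene (36415 genes) and rounded.

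Gene tests used edgeR 4.0.16 in R 4.3.3 (robust quasi-likelihood fit, TMM factors, default filterByExpr settings of 10 counts and a total of 15), with treatment as the only term. A gene was called at a Benjamini-Hochberg adjusted p under 0.1, the false discovery rate of the study. SE is the log2 fold change over the square root of F. CPM used library size and TMM factor, and TPM were computed from estimated counts and effective lengths. Alternatives were DESeq2 1.42.0, limma-voom (limma 3.58.1), upper-quartile factors, no filter, a minimum count of 50, effective length offsets, removal of a length trend, log2(TPM + 1), log2(TPM + 0.1), a replicate block, leaving out each library and, chosen after seeing the data, replicates 2 and 3 alone and a replicate 1 term. Tests were tried on simulated counts. These held no replicate effect, so they say nothing on the replicate block or the replicate 1 term. Floors of 3 counts cover counting error only.

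The members and lists were chosen with earlier results of these data known. Library values are given for members called by any of edgeR, DESeq2, limma-voom or the block, the 5 members with the highest TPM, transcription factors, RNA sensors, and in each pathway list the called genes and the 2 smallest p. Some pathway genes stay in the counts but are not reported here by name. Values of SAMD9, HERC6 and IFI35 were added after they were seen.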

Additional observations from a re-analysis of the deposited data

How the results depend on the processing

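The counts rested on the model. Against 1069 genes, 3 members and 6 pathway genes called, a replicate block gave 4867, 9 and 22 (16 higher and 6 lower), a replicate 1 term 3864, 8 and 18, and replicates 2 and 3 alone 2587, 6 and 11. The numbers were not taken as pairs, because the labels do not say whether same-numbered libraries share a culture or day. Deviations of same-numbered libraries correlated at 0.18, 0.05 and 0.07. Every library correlated best with its own number, a hint from the data and not the design. These values cannot decide whether the libraries are pairs. The block added calls for HERC5, IRF1, IRF7, ISG15, OAS3 and STAT2 (adjusted p = 0.0679, 0.00795, 0.0718, 0.0183, 0.0337 and 7.16e-05), 29.0% of tested members in all against 30.9% of all genes, and called 0 member transcripts. DESeq2 called 1693 genes. Effective length offsets called 367 genes and 0 members, removal of the length trend 646 and 1, log2(TPM + 1) 224 and 0 with 3 pathway genes, and log2(TPM + 0.1) 300 and 0. Before adjustment, 7 members had p under 0.05 in the reported test, a count without the share of all tested genes beside it. The member median moved from 0.07 to 0.14 with log2(TPM + 0.1), and that of all tested genes moved from 0.01 to 0.07. Leaving out single libraries gave 183 to 1566 genes, with 183 and 336 on removing auxin replicate 2 or 3. Removing DMSO replicate 2 or 3 gave 316 and 251. These fits called 0 to 2 members and gave member medians of 0.0187 to 0.0867. The lowest came without auxin replicate 1, beside 0.0115 for all tested genes. Uncalled values changed sign for DDX60 (effective length offsets -0.035, length trend removed -0.054, replicates 2 and 3 alone -0.0555, leaving out single libraries -0.021 to 0.12) and for IFI6 (length trend removed 0.039, log2(TPM + 1) 0.027, log2(TPM + 0.1) 0.028). The causes were not tested. The tested members under 1 CPM (IFIT2, OAS2, IFI27 and IFI44), and SAMD9 above it, had 95% intervals reaching past 1.5-fold.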

Other observations

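Replicate 1 was the highest library of both groups, or the lowest of both, for 15 of the 31 tested members (48.4%). It was highest for 9 and lowest for 6, and the share over all tested genes was 44.03%. The count rests on rank alone and not on how far replicate 1 lay from replicates 2 and 3. SAMD9, RIGI, HERC6, IFI35, IFIT5 and PARP14 were among the genes with replicate 1 highest in both groups, and STAT2, IRF9, MX1, BST2, IFI27 and IFIT3 were those with replicate 1 lowest. The share lay near that of all genes, and the cause of this order was not tested.

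HERC6 lay at 9.60, 7.79 and 7.59 CPM in auxin and at 9.50, 7.66 and 8.04 CPM in DMSO, and IFI35 at 6.01, 5.19 and 5.28 CPM against 6.02, 5.09 and 5.18 CPM. In both genes the difference between replicate 1 and the other replicates exceeded the difference between the groups.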
